A study of Mus musculus with 4 samples.

Results

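The genes described here encode 4 serum carrier proteins (*Alb*, *Afp*, *Ttr*, *Trf*) and 6 apolipoproteins (*Apoa1*, *Apoa2*, *Apoa4*, *Apob*, *Apoc2*, *Apom*), taken by gene symbol from a table of normalized read counts. They are 10 of the 24637 genes in the table, all 10 were found once, and all 10 passed the filter on low values used for the tests (a mean of 10 or more). They were chosen by function and selected on their normalized counts in the 2 genotypes, which earlier results of the same table had shown to be low in 1 of them. The difference between genotypes is therefore given as a description, with no test. Sequencing of messenger RNA covered 2 WT libraries and 2 with the label *Taf4a*-/-, made from mouse embryonic stem cell (ESC) lines, which came from blastocysts of *Taf4a*+/- crosses. The labels number the replicates without naming the line of each library. *Taf4a* encodes a subunit of TFIID, the general transcription factor that binds core promoters, and the mutant allele lacks a pair of internal exons. The ESCs were grown on feeder cells, then differentiated for 5 days as embryoid bodies (EBs) in suspension and for 9 days on gelatin-coated plates in medium with serum, a protocol for cardiomyocytes. The labels give no other treatment for either genotype and no sorting of the cells.

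Albumin, alpha-fetoprotein, transthyretin and transferrin are secreted proteins that carry ligands in plasma, and the apolipoproteins coat lipoprotein particles that carry lipid between tissues. In the mouse embryo the visceral endoderm of the yolk sac makes most of these proteins before the liver does, and hepatocytes, and for several apolipoproteins the gut epithelium, make them later. Their promoters are textbook targets of HNF4, FOXA and C/EBP factors, which act together in endoderm and liver.

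The 4 libraries held 21732746 to 27733034 reads on genes, and 1 read was worth 0.877 to 1.11 normalized counts. Counts on the *Taf4a* gene itself were 889 and 678 for the WT libraries, whereas the libraries labelled *Taf4a*-/- held 1722 and 1799, which is higher, not lower, in the mutant. A count over the whole gene includes exons that the mutant allele keeps, so the genotype is taken from the labels only. All 10 of 10 tested cardiomyocyte markers were lower in the libraries labelled *Taf4a*-/- (limma, Benjamini-Hochberg adjusted p under 0.05), with a summed level of 10.3% of that in WT, and 6 of 8 pluripotent cell markers were higher. Of the 16926 genes tested, 17.3% were lower and 11.3% higher by this rule, or 2928 and 1906 genes. Quantile normalization turned these into 2448 lower and 2676 higher.

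All 10 carrier and apolipoprotein genes were expressed in both WT libraries and were lower in both libraries labelled *Taf4a*-/-, with no overlap between genotypes. Of all tested genes, 36.6% had both of these libraries below both WT libraries. The mean of the libraries labelled *Taf4a*-/- was 0% to 3.18% of the WT mean, with a median of 1.15% over the 10 genes against 99.1% over all genes tested. All 10 were under 5% of WT, as were 1.63% of all tested genes, and 2.7% of all tested genes were under 10%. The median difference was -6.26 on the scale of log2(normalized counts + 1), where the median of all tested genes was -0.01. Added together, the 10 genes gave 85108 and 66489 normalized counts in the WT libraries and 622 and 534 in those labelled *Taf4a*-/-, a 131-fold difference of the means. They took 0.350% and 0.261% of the WT libraries and 0.00262% and 0.00222% of the other 2. In RNA from a whole culture, fewer cells of a type and less RNA per cell cannot be told apart.

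**Figure D1:**
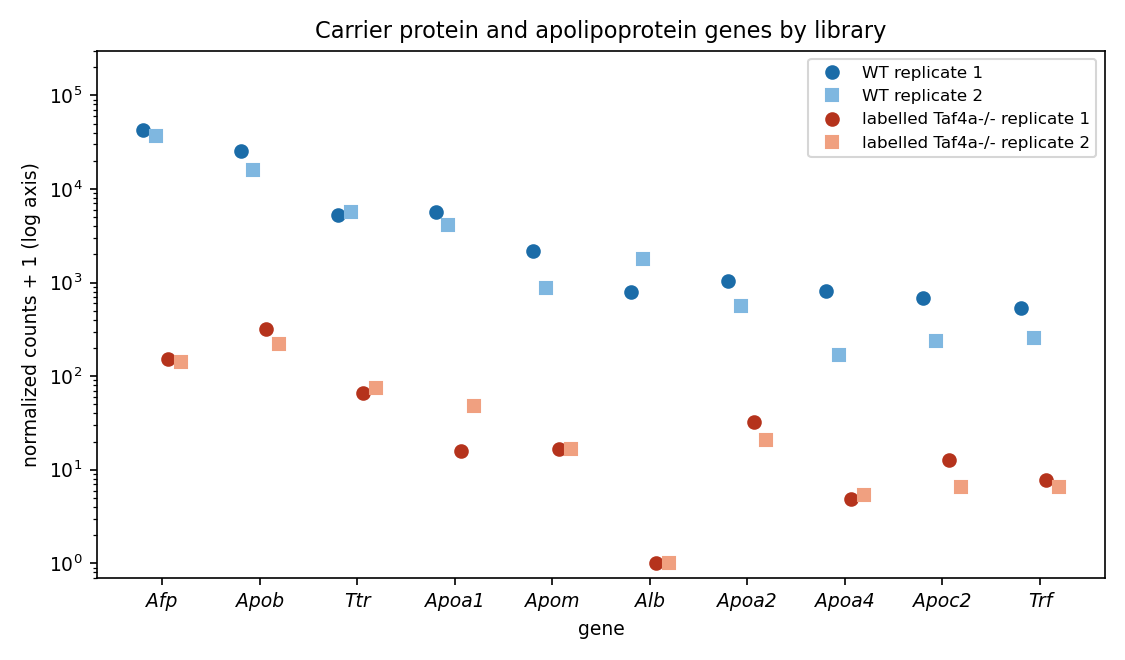
Normalized counts plus 1 (log axis) of the 10 genes in each library, ordered by WT mean, with the WT libraries in blue and those labelled *Taf4a*-/- in red. For every gene both red points lie under both blue points, and *Alb* lies at 0 reads in both libraries labelled *Taf4a*-/-.

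*Afp*, which encodes the albumin-like carrier of fetal serum, was the most abundant of the carriers. WT replicates 1 and 2 held 42655 and 36728 normalized counts of it, and the libraries labelled *Taf4a*-/-, in the same order of replicates, 152 and 140.5. The WT libraries were close to each other, and so were the other 2. The WT mean was 39691 ± 4191 (SD, n = 2) and the other mean 146 ± 7.97 (SD, n = 2), a 272-fold difference that ran from 242-fold to 304-fold over the 4 pairs of libraries.

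*Alb*, which encodes the main carrier of adult plasma, stood at 799 and 1797 normalized counts in WT. No read was counted for it in either library labelled *Taf4a*-/-, where 3 reads, the limit that a count of 0 allows, would be 2.94 and 3.32 normalized counts. With that floor at the mean value of a read over all 4 libraries, 3.00 normalized counts, *Alb* was at least 432-fold lower. The limit was 266-fold with WT replicate 1 alone and 599-fold with WT replicate 2 alone. The mean floor of the libraries labelled *Taf4a*-/- is slightly higher and would lower these limits slightly. *Alb* was the only gene of the 10 with no read in a library, and these limits cover counting error only.

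*Ttr*, the carrier of thyroid hormone and, through retinol-binding protein, of retinol, was the carrier with the steadiest WT level. Its values were 5299.7 and 5625 in WT and 65.6 and 74.1 in the libraries labelled *Taf4a*-/-. The means differed 78.2-fold, and the pairs of libraries gave 71.5-fold to 85.8-fold.

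*Trf*, the iron carrier transferrin, was the least abundant carrier in WT, with 533 and 256 normalized counts. It had 6.85 and 5.53 in the libraries labelled *Taf4a*-/-, which is 7 and 5 reads. The WT libraries differed more than the other 2 libraries did, and the fold ran from 37.3 to 96.4 over pairs around a ratio of means of 63.7. A further annotated gene on the same strand shares 63.7% of the exonic bases of *Trf*, so reads of *Trf* could have been left out or split by the counting.

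*Apob*, the large structural protein of the particles that liver, gut and yolk sac secrete, had the highest normalized counts of the 6 apolipoproteins, over the longest exons, and stood under *Apoa1* per kb of exon. It had 25473 and 16139.5 normalized counts in WT and 320.1 and 222 in the libraries labelled *Taf4a*-/-. Both groups had a higher first replicate, and the groups stayed far apart. The difference of the means was 76.7-fold and ran from 50.4-fold to 114.6-fold over pairs.

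*Apoa1*, the main protein of high-density lipoprotein (HDL), had 5649.5 and 4102 normalized counts in WT and 14.7 and 46.5 in the libraries labelled *Taf4a*-/-. The second of these held 42 reads and the first 15, the widest ratio within that group among the 9 genes with reads there. The fold accordingly ran from 88.3 to 385 over pairs, with 160 for the means.

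*Apoa2*, also an HDL protein, kept the largest share of its WT level, 3.18%. It had 1049 and 562 normalized counts in WT and 31.3 and 19.9 in the libraries labelled *Taf4a*-/-, a 31.4-fold difference of the means with 17.9-fold to 52.7-fold over pairs. *Apoa4*, made with triglyceride-rich particles in the gut, had 821 and 167 in WT and 3.92 and 4.42, or 4 reads each, in the libraries labelled *Taf4a*-/-. Its WT libraries were the farthest apart of the 10, so that its fold of 118 was 197 with WT replicate 1 alone and 40.1 with WT replicate 2 alone. The antisense gene *Gm10680* shares 34.8% of the exonic bases of *Apoa4*, and the library kit does not mark strand.

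*Apoc2*, the cofactor that activates lipoprotein lipase, had 677 and 237 normalized counts in WT and 11.7 and 5.53 in the libraries labelled *Taf4a*-/-. The means differed 52.9-fold, which was 78.3-fold with WT replicate 1 alone and 27.4-fold with WT replicate 2 alone. *Apoc2* overlaps *Apoc4* on the same strand over 112 of its 932 exonic bases. *Apom*, the HDL protein that carries sphingosine-1-phosphate, had 2153 and 875 in WT and 15.7 and 15.5 in the libraries labelled *Taf4a*-/-. It differed 97.2-fold, or 138-fold and 56.2-fold with WT replicate 1 and WT replicate 2 alone. For both genes WT replicate 1 was the higher WT library, and both mutant-labelled libraries were far under either.

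To compare levels between genes, normalized counts were divided by the length of each gene's exons. Per kb of exon, *Afp* stood first in WT, at 20448 and 17607 normalized counts per kb in the 2 libraries, which was rank 14 and rank 23 among all genes of the table. *Ttr* followed at 4348 and 4615 and *Apoa1* at 4571 and 3319, and these overlapped. *Apoa2*, *Apob* and *Apom* formed a middle group between 850.2 and 2093 whose ranges overlapped. *Alb* had 391 and 879, *Apoc2* 726 and 254, *Apoa4* 452 and 92.2 and *Trf* 161 and 77.2. Of the 9 neighbouring pairs in this order, only *Afp* over *Ttr*, at a ratio of 4.25, and *Apoa1* over *Apoa2*, at 2.63, had WT ranges that did not overlap. Per kb, *Afp* exceeded *Alb* by 52.3 times in WT replicate 1 and 20.0 times in WT replicate 2.

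**Figure D2:**
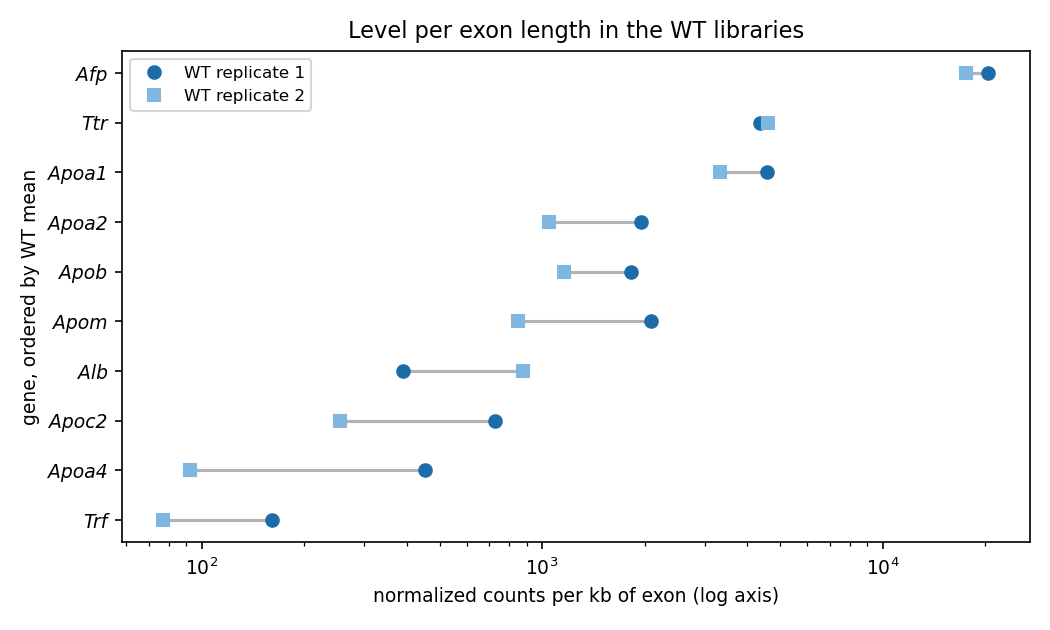
Normalized counts per kb of exon (log axis) of the 10 genes in the 2 WT libraries, ordered by the mean, with a line joining the libraries. *Afp* lies above 17607 in both libraries, and the lines of *Apoa4*, *Apoc2* and *Apom* are the longest.

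The residual reads in the libraries labelled *Taf4a*-/- had another make-up than the WT reads. *Afp* gave 50.1% and 55.2% of the summed normalized counts of the 10 genes in WT and 24.4% and 26.3% in the libraries labelled *Taf4a*-/-. *Apob* gave 29.9% and 24.3% in WT and 51.5% and 41.6% in the other 2, so *Apob* had the largest count there. Per kb of exon *Afp* still led, with 28.9% and 27.6% of the summed level per kb of the 10 genes in the libraries labelled *Taf4a*-/- against 9.12% and 6.54% for *Apob*. In WT the share of *Afp* per kb was 55.3% and 58.9%. Together *Afp* and *Apob* made up at least 67.9% of the summed normalized counts, not divided by length, in each of the 4 libraries. The sums in the libraries labelled *Taf4a*-/- rested on 635 and 483 reads.

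The WT libraries also differed from each other in these genes. 8 of the 10 were higher in WT replicate 1, while *Alb* and *Ttr* were higher in WT replicate 2. The median size of the difference between the WT libraries was 0.98 on the log2 scale over the 10 genes and 0.26 over all tested genes. *Trf*, *Apoa4*, *Apoc2* and *Apom* were at least 2-fold higher in WT replicate 1, as were 4.30% of all tested genes. *Alb* was at least 2-fold higher in WT replicate 2, as were 3.17%. The line and the culture cannot be told apart here. In the libraries labelled *Taf4a*-/-, 6 genes were higher in replicate 1 and 3 in replicate 2, and *Alb* was at 0 in both.

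4 of the genes lie in pairs. *Alb* (chr5:90889915-90905629) and *Afp* (chr5:90919740-90937933) are both on the plus strand of NCBIM37, the mm9 build, with 14110 bases between them. *Afm*, the next member of the albumin family, had 78.9 and 612 normalized counts in WT and 19.6 and 28.8 in the libraries labelled *Taf4a*-/-. It fell by 3.16 on the log2 scale (SE 0.89, limma adjusted p = 0.0443), a call lost with quantile normalization, without a variance trend, with voom and without WT replicate 2, where the difference was -1.69. On the other side of *Alb*, *Gm9958* had 39.5 and 37.4 in WT and 46.0 and 75.2 in the libraries labelled *Taf4a*-/- (limma adjusted p = 0.258). *Ankrd17*, beyond *Gm9958*, had 10538 and 11409 in WT and 12390 and 12313 in the libraries labelled *Taf4a*-/- (limma adjusted p = 0.327).

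*Apoa1* (chr9:46036663-46038549) and *Apoa4* (chr9:46048779-46051542) are on the plus strand with 10229 bases between them, and *Apoc3* lies in that interval. *Apoc3*, an inhibitor of lipoprotein lipase, had 20.2 and 18.7 normalized counts in WT and 1 read and no read in the libraries labelled *Taf4a*-/-. Its mean was just under the filter of 10, and with no filter it was called lower (limma adjusted p = 0.00919). That setting also called 1 other apolipoprotein higher. *Apoa5*, which promotes triglyceride clearance, had 50.8 and 10.4 in WT and 1 read in each of the other 2, and fell (limma adjusted p = 0.0252). The call was lost with a pseudocount of 10 and without a variance trend. The flanking genes *Sik3* and *Zfp259* differed by -0.01 and 0.25 on the log2 scale (limma adjusted p = 0.957 and 0.246). Near *Apoc2* (chr7:20256928-20266772, minus strand), *Apoc1* had 154 and 83.1 in WT and 62.7 and 71.9 in the libraries labelled *Taf4a*-/-, a difference of -0.75 (limma adjusted p = 0.170). The other genes of the 10 are at chr12:7984454-8023641 (*Apob*, plus strand), chr1:173155185-173156510 (*Apoa2*, plus), chr17:35265942-35268995 (*Apom*, minus), chr9:103106331-103132774 (*Trf*, minus) and chr18:20823751-20832825 (*Ttr*, plus).

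**Figure D3:**
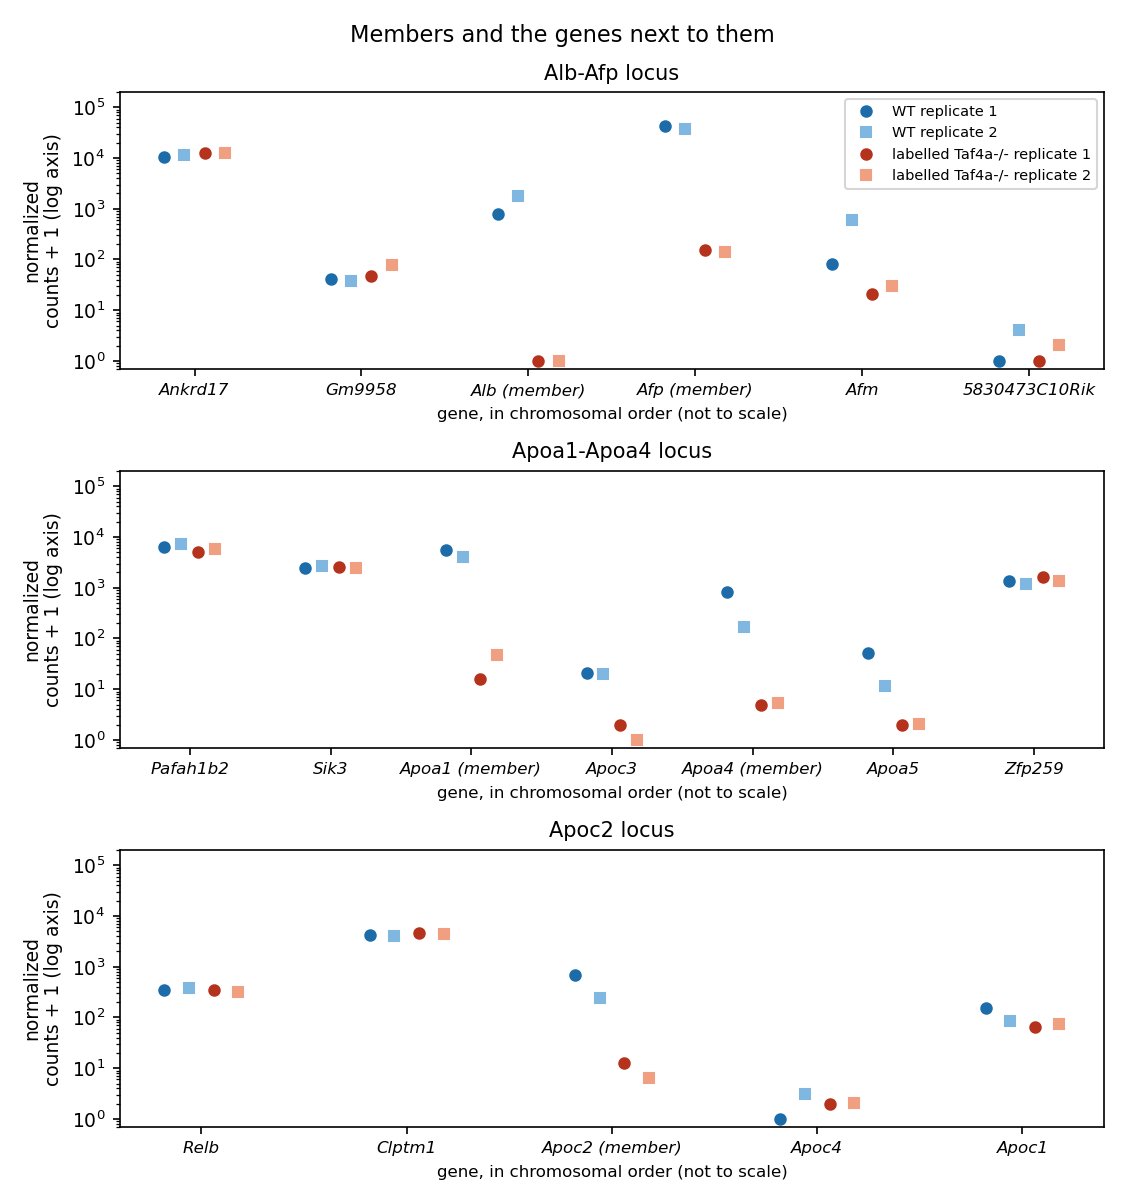
Normalized counts plus 1 (log axis) of the genes around *Alb* and *Afp*, around *Apoa1* and *Apoa4* and around *Apoc2*, in chromosomal order, with the WT libraries in blue and those labelled *Taf4a*-/- in red. The outer genes *Ankrd17*, *Sik3* and *Clptm1* have red and blue points close together, while *Alb*, *Afp*, *Apoa1* and *Apoa4* have them far apart.

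Promoter sequences from RefSeq (GRCm38.p6) were searched in 8 of the 10 genes, with 9 promoters. *Trf* and *Ttr* were not among the genes searched, so the counts of genes with a motif do not cover them. The choice of sequences shown depends on this too, since *Ttr* had a larger WT mean than *Apoa1* (5463 against 4876 normalized counts). The 110 bases before the start are shown, since the mutated gene encodes a subunit of the factor that binds core promoters. The sequences are those of *Alb*, the gene with no read left, and of the 3 searched genes with the largest WT means. Each matched NCBIM37 once, on the plus strand, at chr5:90889786-90889895 (*Alb*), chr5:90919630-90919739 (*Afp*), chr9:46036603-46036712 (*Apoa1*) and chr12:7984373-7984482 (*Apob*). Capitals mark matches to the 5 motifs spelled out after the sequences, and overlapping matches run together.
Alb: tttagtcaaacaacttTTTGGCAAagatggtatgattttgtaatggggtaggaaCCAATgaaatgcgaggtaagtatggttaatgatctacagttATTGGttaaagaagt
Afp: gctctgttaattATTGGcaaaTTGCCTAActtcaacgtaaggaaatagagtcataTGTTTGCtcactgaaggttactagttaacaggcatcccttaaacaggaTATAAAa
Apoa1: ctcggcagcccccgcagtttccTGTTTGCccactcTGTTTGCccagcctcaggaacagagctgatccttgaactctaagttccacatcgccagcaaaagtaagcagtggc
Apob: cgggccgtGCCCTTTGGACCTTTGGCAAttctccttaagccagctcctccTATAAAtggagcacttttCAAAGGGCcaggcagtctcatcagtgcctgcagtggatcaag

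TGTTTNC, the core of FOXA sites, was in 6 of the 8 genes (*Afp*, *Alb*, *Apoa1*, *Apoa2*, *Apob*, *Apom*) and in 19.9% of the 27025 genes of the promoter table, and *Apoa1* had it at 2 positions in the bases shown. CAAAGNNC, a core of HNF4 sites, was in 4 of 8 (*Afp*, *Apoa4*, *Apob*, *Apoc2*) and 17.4%, with 3 matches in *Apob*. TTGCNNAA, a core of C/EBP sites, was in 4 of 8 (*Afp*, *Alb*, *Apoa2*, *Apob*) and 10.8%, and in *Apob* it overlaps the middle match to CAAAGNNC. CCAAT was in 3 of 8 (*Afp*, *Alb*, *Apoa2*) and 37.5%, with 2 matches in *Alb*. These 4 were searched on both strands in the 250 bases before each start. TATAAN, the letters of a TATA box, was searched on the gene's strand from 60 bases before the start to 29 after it. It was in *Afp* and *Apob* and in 7.91% of all genes. The match in *Afp* lies 7 to 2 bases before the start, and that in *Apob* 60 to 55 bases before it, at the edge of the window. The starts are those of RefSeq, and that of *Alb* lies 19 bases before the start in the gene annotation used for the positions above, that of *Apob* 29 and that of *Apoa1* 50 after it. For genes not shown, the start of *Apoa4* lies 148 bases, that of *Apom* 249 and that of *Apoc2* 3482 bases after it, and *Apoa2* has a further start 3490 bases before it. *Apoa2* matched TTGCNNAA only at that further start and TGTTTNC only at the start that the annotation gives. A match describes the letters only, and binding was not measured.

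Lists of genes that work with these proteins were read in the same fit. Of 112 listed genes, 97 could be tested, 49 were lower and 1 was higher, against 17.3% and 11.3% of all genes. Of the 4 tested other apolipoproteins, 2 were lower and 0 higher, with a median difference of -1.24. *Apoe*, which many cell types including macrophages make, had 31165 and 30266 normalized counts in WT and 9775 and 8841 in the libraries labelled *Taf4a*-/-. It fell by 1.72 on the log2 scale (SE 0.13, limma adjusted p = 0.00127) and so kept 30.3% of its WT level, more than any of the 10 genes. *Clu*, another widely made apolipoprotein, differed by -0.54 (limma adjusted p = 0.252). None of the 4 was higher at an unadjusted p under 0.05 or by voom. *Apod*, under the filter and so not among the 4, went the other way. Its normalized counts were 0 for both WT replicates, 6.85 for *Taf4a*-/- replicate 1 and 6.64 for *Taf4a*-/- replicate 2. With no filter, 1 gene of this list was called higher.

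8 of the 9 tested other serum carriers were lower and 0 higher (median difference -3.55). *Rbp4*, the retinol carrier that binds transthyretin, had 8851 and 13034 normalized counts in WT and 991 and 471 in the libraries labelled *Taf4a*-/-, and fell by 3.97 (SE 0.36, limma adjusted p = 0.00194). *Hpx*, the heme carrier, fell by 3.55 (SE 0.25, limma adjusted p = 0.00109). *Ambp*, the precursor of alpha-1-microglobulin and bikunin, had 270.0 and 609 in WT and 5 reads and 1 read in the other libraries. *Serpina6*, the corticosteroid carrier, had 87.7 and 79.0 in WT and no read in the libraries labelled *Taf4a*-/-, at least 27.8-fold lower. The other carriers that fell were *Gc*, *Cp*, *Ahsg* and *Afm*. *Fetub* was the exception, with a difference of 1.38 (limma adjusted p = 0.0554). It was higher at an unadjusted p under 0.05 and was called higher by voom. Without WT replicate 2, 4 of the carriers were called lower, and *Gc*, *Cp*, *Ahsg* and *Afm* were not.

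9 of the 19 tested genes of lipoprotein assembly and remodelling were lower and 1 higher (median difference -1.16). *Mttp*, which loads lipid onto the *Apob* product, had 2834 and 3297 normalized counts in WT and 718 and 716 in the libraries labelled *Taf4a*-/-. It fell by 2.09 (SE 0.13, limma adjusted p = 0.000879) and kept 23.4% of its WT mean, a larger share than any of the 10 genes kept. *Apobec1*, which edits *Apob* mRNA, fell by 3.28, *Soat2*, which makes cholesteryl ester, fell by 3.19, and *Lpl*, the lipase that the *Apoc2* product activates, fell by 2.93 (limma adjusted p = 0.00230, 0.000982 and 0.000624). *Abca1*, which hands cholesterol to the *Apoa1* product, fell by 1.73 (limma adjusted p = 0.00147). *Dgat1*, an enzyme of triglyceride synthesis, rose by 0.59 (SE 0.14, limma adjusted p = 0.0255). That call was lost without WT replicate 2, without either library labelled *Taf4a*-/- and without a variance trend, where 0 were called higher.

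9 of the 15 tested receptors and uptake genes were lower and 0 higher (median difference -0.998), and voom and an unadjusted p under 0.05 also gave 0 higher. *Cubn* and *Amn*, which together take up HDL and albumin at the apical surface of visceral endoderm, fell by 4.93 (SE 0.36, limma adjusted p = 0.00123) and fell by 5.00 (SE 0.83, limma adjusted p = 0.00991). The call of *Amn* was lost without WT replicate 1 and without WT replicate 2. *Fcgrt*, which recycles albumin, fell by 3.86 (limma adjusted p = 0.00101). *Tfrc*, the receptor of transferrin, and *Lrp2*, a partner of *Cubn*, both differed by 0.22 and were not called.

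14 of the 22 tested transcriptional regulators of these genes were lower and 0 higher (median difference -0.87). An unadjusted p under 0.05 and voom also gave 0 higher. *Hnf4a* had 1077 and 1118 normalized counts in WT and 117 and 95.1 in the libraries labelled *Taf4a*-/-, and fell by 3.36 (SE 0.18, limma adjusted p = 0.000635). *Cebpa* fell by 3.88 and *Onecut1* fell by 2.92 (limma adjusted p = 0.00196 and 0.0120). *Foxa1*, *Foxa2* and *Foxa3*, with -1.55, -1.07 and -1.46, were called lower, and *Sox17*, with -0.34, was not called. The count of 14 was 4 without WT replicate 2, 9 without the library labelled *Taf4a*-/- replicate 1 and 8 without replicate 2, and 7 without a variance trend. *Onecut1* and the *Foxa* genes lost their calls without WT replicate 2.

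Of 28 tested genes of the general secretory machinery, which every secreting cell uses, 7 were lower, 0 were higher and 21 did not pass, with a median of -0.37, against 17.3% of all genes lower. The largest difference of a called gene was that of *Ssr3*, a translocon-associated subunit, at -0.83 (limma adjusted p = 0.0401). This list depended on single libraries, with 18 called lower without WT replicate 1, 2 without WT replicate 2 and 1 with either library labelled *Taf4a*-/- left out, and none without a variance trend. At an unadjusted p under 0.05, 14 were lower and 1 higher, and voom called 5 lower and 0 higher.

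**Figure D4:**
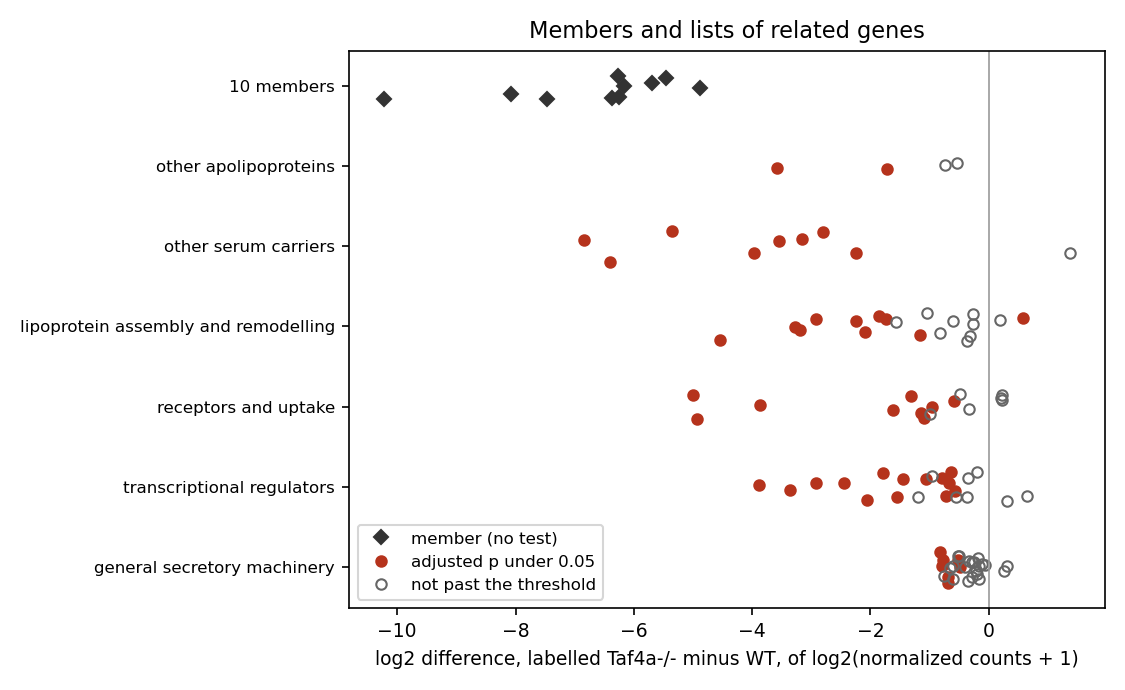
Difference between libraries labelled *Taf4a*-/- and WT on the scale of log2(normalized counts + 1) for the 10 genes and for 6 lists of related genes, 1 point a gene, with filled red points at a limma adjusted p under 0.05. The 10 genes lie at -4.89 and below, where the leftmost is *Alb*, whose position depends on the added count of 1. The secretory machinery lies closer to 0 and mostly below it, with a median of -0.37.

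Markers of cell types that could make these proteins were read beside them, against 17.3% of all genes lower. Of 9 tested visceral endoderm markers, 7 were lower, with sums of 21791 and 19440 normalized counts in WT and 8618 and 6232 in the libraries labelled *Taf4a*-/-, or 36.0%. Such sums rest on the most abundant markers, and the median difference of these markers was -2.94 on the log2 scale. *Dab2*, with the largest WT mean of the list, kept 32.9% of it, *Lrp2* had 118% and *Cubn* kept 3.16%. *Cubn*, *Amn*, *Dab2*, *Lrp2*, *Hnf4a*, *Foxa2* and *Sox17* of this list also stand in the lists above. Of 8 parietal endoderm markers 2 were lower (49.5% of the WT sum, median difference -1.01), and of 6 choroid plexus markers 3 (38.3%, median -1.59). Of 7 intestinal markers 4 were lower and 1 higher (31.3%, median -4.35). Most hepatocyte markers were scarce in WT too. *Tat* had no read in WT, *Ugt2b1* none and 2.08 normalized counts and *Slc10a1* 1 read and none, and only 2 of 7 hepatocyte markers could be tested, of which *Arg1* was lower and *Tdo2*, with 190.2 and 38.4 normalized counts in WT and 144 and 88.5 in the libraries labelled *Taf4a*-/-, was not called. Markers of other cells in the culture were lower as well, at 1.60% of the WT sum for macrophages (9 of 9 tested lower) and 10.6% for fibroblasts (7 of 8). The part of these cell types in the levels of the 10 genes was not tested.

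Among genes outside the 10, those whose values over the 4 libraries were nearest to the mean pattern of the 10 were named, by Euclidean distance of the log2 values centred on each gene's mean. In order these were *Ccl3* (distance 0.340), *Muc13* (0.409), *Ms4a6c* (0.421), *Ms4a6b* (0.443), *F2* (0.452), *Serpina6* (0.495), *Tlr9* (0.621) and *Mstn* (0.646). *Ccl3*, *Tlr9* and the *Ms4a6* genes are known from macrophages, *Muc13* from gut and other epithelia, and *F2*, prothrombin, from liver. Of the 10 genes themselves, *Apom* (0.520) and *Apob* (0.553) lay nearest to the mean pattern and *Alb* (3.78) farthest from it. With 4 libraries in 2 genotypes, this measure ranks mainly the size of the difference between genotypes. *Ccl3*, *Ms4a6c*, *Ms4a6b*, *Serpina6*, *Tlr9* and *Mstn* had no read in either library labelled *Taf4a*-/-, with WT means of 83.3 to 138 normalized counts. Their distances therefore depend on the added count of 1, as that of *Alb* does.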

How the data were processed

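Polyadenylated RNA of 4 libraries was sequenced, 2 for each genotype label. The authors mapped the reads to mm9 and deposited read counts per gene, each divided by one size factor per library, as a table of normalized counts with decimal commas. The submitters' processing notes name CASAVA 1.8, TopHat 1.3.3, HTSeq 0.5.3p1 and DESeq. The annotation release is not given in the sources used here, and all 24637 gene identifiers were found in the NCBIM37 annotation, from which positions and exon lengths were taken.

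Dividing by the value of 1 read gave whole reads, within 0.01 read, for 100% of values. For 16926 genes, those averaging 10 or more, genotypes were compared by limma 3.58.1 under R 4.3.3 (lmFit, eBayes with a variance trend) on log2(normalized count + 1), and called at a Benjamini-Hochberg adjusted p under 0.05 over all of them. Log2 differences understate the change of low genes. The p-values rest on the spread between 2 libraries a genotype, moderated toward the spread of other genes of similar level. Folds are ratios of mean normalized counts. A floor of 3 reads, at the mean value of a read over all 4 libraries, was used for genes at 0. It covers counting error only, because no molecular identifiers were used. The 10 genes and the lists were chosen with earlier results of these data known, and the genes named beyond them are those of the lists, the neighbours of the genes and the nearest patterns. 6 listed genes were not analysed here, and some listed genes are counted but not reported here by name. The fit was checked on simulated reads with few genes changed and the same dispersion for every gene. That check does not cover the spread or the number of changes in these data. Python 3.11.15 and matplotlib 3.10.9 drew the figures.

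Replicate numbers were taken as names, since deviations of libraries that share a number correlated at 0.012. Results were recomputed with other pseudocounts, minimum means, scalings and thresholds, with no variance trend, with a replicate block and without each library in turn. After the data were seen, voom (limma) was added for the recovered reads. It was the only test of counts run.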

Additional observations from a re-analysis of the deposited data

How the results depend on the processing

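With 2 libraries a genotype and a lone library assumed to vary like the others wherever one was left out, counts of calls depended on the setting. None of the 10 genes and no gene called in the lists changed sign. The median difference of the 10 genes was -5.93 with a pseudocount of 10, -6.09 with quantile normalization and -6.80 to -5.82 without single libraries. The median of all genes went from -0.01 to 0.05 with equal library totals and to 0.11 with quantile normalization, which gave 2448 lower and 2676 higher. Leaving out single libraries gave 1222 to 3038 genes lower and 624 to 2476 higher, 4 to 8 serum carriers lower, 4 to 10 regulators lower and 0 to 1 higher, 1 to 18 secretory machinery genes lower, and 0 to 1 assembly genes higher. Without a variance trend, 1741 genes were lower and 856 higher, with 1 other apolipoprotein, 7 regulators and 0 secretory machinery genes lower, 0 assembly genes and 1 serum carrier higher. At an adjusted p under 0.01, 1119 genes were lower and 331 higher, with 1 other apolipoprotein, 5 serum carriers, 4 regulators and 0 secretory machinery genes lower and 0 assembly genes higher. A minimum mean of 50 left 1 other apolipoprotein and 5 serum carriers lower, since fewer genes were tested. A pseudocount of 10 left 1 other apolipoprotein lower, and 1 serum carrier was higher there, with equal library totals, with quantile normalization and with voom. With no filter 3 other apolipoproteins were lower and 1 higher. The cause of these changes was otherwise not tested. With the replicate block 2657 genes were lower and 1536 higher. It ended the calls of *Nr2f2*, *Prox1*, *Sec13* and *Spcs3* and of no other gene of the lists. Voom gave 2580 lower and 2134 higher. Tests of counts by edgeR and DESeq2 were planned and were not run.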

Other observations

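The WT libraries differed in other lists too. Of the 4 tested other apolipoproteins, 3 were higher in WT replicate 1, as were 8 of the 10 genes. Of the 9 tested other serum carriers, 7 were higher in WT replicate 2, and *Afm* and *Ambp* had 612 and 609 normalized counts there against 78.9 and 270.0 in WT replicate 1. All 28 of 28 general secretory machinery genes were higher in WT replicate 2, with a median difference of 0.34 on the log2 scale and none at least 2-fold. Of 8 pluripotent cell markers, 7 were higher in WT replicate 1, 4 of them at least 2-fold. Visceral endoderm markers were split, 5 higher in WT replicate 1 and 4 in WT replicate 2. These are single libraries, and the difference between them was not tested.

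Intestinal markers went in both directions. *Vil1*, an actin-binding protein of microvilli, had 842 and 691 normalized counts in WT and 27.4 and 48.7 in the libraries labelled *Taf4a*-/-. *Tff3*, a secreted mucosal peptide, had 294 and 196 in WT and 3.92 and 2.21 in the other 2. *Lgals4*, an enterocyte gene, had 48.2 and 50.9 in WT and 33.3 and 47.6 in the libraries labelled *Taf4a*-/- and was not called (limma adjusted p = 0.531). *Cdx1* had 3.51 and 5.20 in WT and 35.2 and 21.0 in the libraries labelled *Taf4a*-/-, and *Cdx2* 308 and 283 against 496 and 399. *Cdx2* was not called (limma adjusted p = 0.0586). *Cdx1* was called higher (limma adjusted p under 0.05), a call lost without WT replicate 1, without WT replicate 2 and without the library labelled *Taf4a*-/- replicate 1.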
